A study of Mus musculus with 19 samples.

Results

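The genes described here are 10 leukocyte integrins and adhesion molecules, *Itgam*, *Itgal*, *Itgb2*, *Itga4*, *Itga6*, *Itgb7*, *Icam1*, *Vcam1*, *Pecam1* and *Jaml*, which were chosen by name from the 27299 genes of the expression table. The choice was made with earlier results of these data known. All 10 were found in the table. On GRCm38, *Itgal* (chr7:127296260-127335138) and *Itgam* (chr7:128062640-128118491) lie on the same strand of chromosome 7, and *Icam1* (chr9:21015985-21028817) and *Jaml* (chr9:45079183-45108534) both lie on chromosome 9. *Itga4* and *Itga6* lie on chromosome 2, *Vcam1* on 3, *Itgb2* on 10, *Pecam1* on 11 and *Itgb7* (chr15:102215995-102231944) on 15. Each value is the sum over all exons of a gene, untranslated parts included, so isoforms cannot be told apart. They were measured by bulk RNA-seq in retinal microglia, the resident macrophages of the retina, from mice aged 8 weeks. The CNV d3 group held 6 samples taken on day 3 after laser treatment, in which 6 burns per eye had been set to induce choroidal neovascularization, the growth of vessels from the choroid below the retina. The control group held 6 samples from mice without laser treatment. The labels give all mice as C57BL/6J and the sort as CD45+CD11b+CX3CR1+Ly6C-Ly6G-, while the methods of the study name *Cx3cr1* GFP/+ mice and low CD45. CD11b is the protein of *Itgam*, so every cell was sorted for 1 of the 10 members. Nothing states how many mice went into a sample, and p-values measure the spread between these samples only.

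Between 10963178 and 22335233 reads lay on genes in the control samples and between 23532260 and 29523018 in the CNV d3 samples, so every control sample was shallower than every CNV d3 sample. Calls of the 10 genes were the same when the reads of all samples were thinned to the total of the shallowest one. The microglial markers *Csf1r* and *P2ry12* were abundant in all 12 samples. *P2ry12*, a purine receptor of resting microglia, fell in CNV d3 and had 157959 to 214665 normalized counts in control and 44022 to 81084 in CNV d3. Of 10 microglial markers 7 fell and 0 rose, against 4.57% fallen and 8.29% risen over all genes. Their sum was 1072340 to 1144960 in control and 553268 to 835906 in CNV d3. All 6 controls but only 1 CNV d3 sample, replicate 4, were listed in 2 parts, so this listing ran along the groups. In that replicate *Itgam*, *Itgal*, *Itga6*, *Itgb7* and *Jaml* lay above all controls, but 1 sample cannot tell the listing from the laser treatment. In bulk samples, fewer cells of a type and less RNA per cell cannot be told apart.

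Integrins are receptors built of 1 alpha and 1 beta chain, and they bind the matrix or counter-receptors on other cells. Beta 2 pairs with alpha L (*Itgal*, together LFA-1), alpha M (*Itgam*, together Mac-1 or complement receptor 3), alpha X (*Itgax*) and alpha D (*Itgad*), and is a chain of leukocytes. LFA-1 and Mac-1 bind ICAM1 on endothelium and other cells, which lets leukocytes arrest and cross the vessel wall, and Mac-1 also takes up particles coated with complement. Alpha 4 pairs with beta 1 to bind VCAM1 and with beta 7 to bind the gut addressin MAdCAM1, and alpha 6 beta 1 is a laminin receptor. PECAM1 sits at contacts of endothelial cells and on platelets and many leukocytes, and JAML is a junctional adhesion molecule of leukocytes that binds CAR on epithelium.

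Of the 10 genes, 5 rose in CNV d3 (*Itgam*, *Itgal*, *Itga6*, *Itgb7* and *Jaml*), 1 fell (*Pecam1*) and 4 did not pass the test (*Itgb2*, *Itga4*, *Icam1* and *Vcam1*). All genes were compared by limma after a log2 transform of normalized counts + 1, the scale of the fold changes below, and a gene was called at a Benjamini-Hochberg adjusted p under 0.05. Over all genes 8.29% rose and 4.57% fell. Among the 13614 genes with a mean of at least 10 normalized counts over the 12 samples, 13.7% rose and 8.92% fell. All 10 members reach this mean, but *Itgb7* and *Jaml* only through CNV d3, with control means of 0.898 and 0. Of the differentially expressed genes (DEG), for which the log2 fold change must also exceed 1.5 in size, *Itgal*, *Itgb7* and *Jaml* were increased and none of the 10 was decreased, against 3.91% increased and 1.07% decreased over all genes. In the 5 that rose, every CNV d3 sample lay above every control sample, which held for 4.64% of all genes. None of the 10 had all CNV d3 samples below all controls, which held for 2.83% of all genes. The median log2 fold change of the 10 was 0.61, against 0.15 over all genes. Because the 10 were chosen with earlier results of these data known, these comparisons with all genes are descriptions only. Leaving out each of the 12 samples in turn gave the same 5 genes as risen each time.

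**Figure D1:**
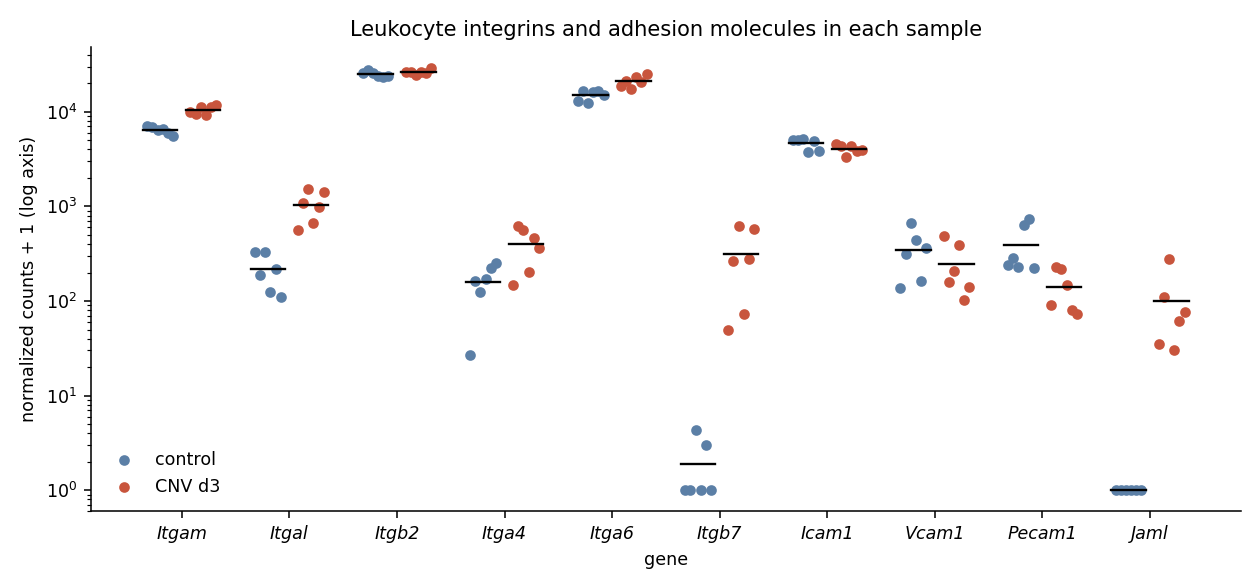
Normalized counts + 1 on a log axis of the 10 genes in the 6 control samples (blue) and the 6 CNV d3 samples (red), with the mean of each group as a black bar. *Jaml* was at 0 in every control sample and between 29.4 and 280 in CNV d3, while *Itgb2* and *Icam1* overlapped between the groups.

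Promoter sequences were at hand for 5 of the 10 genes, and 4 are shown here: *Itgb7* and *Jaml*, which had almost no reads in control, and *Itgam* and *Icam1*, which were well expressed in both groups. They are the 250 bases before the RefSeq start on build GRCm38.p6, at chr15:102231936-102232185 (minus strand), chr9:45078933-45079182 (plus), chr7:128062390-128062639 (plus) and chr9:21015690-21015939 (plus), written 5′ to 3′ along the gene. Capitals mark matches on either strand to GAGGAA (a core bound by the myeloid factor PU.1), TGTGGT (a core bound by RUNX factors), GGAAATTCC (a form bound by NF-κB) and TATAAA (a core promoter box bound by TBP).
Itgb7: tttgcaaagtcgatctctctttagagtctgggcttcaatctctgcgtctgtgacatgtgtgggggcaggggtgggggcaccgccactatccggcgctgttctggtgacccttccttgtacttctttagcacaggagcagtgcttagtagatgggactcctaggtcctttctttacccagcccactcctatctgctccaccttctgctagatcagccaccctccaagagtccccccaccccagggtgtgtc
Jaml: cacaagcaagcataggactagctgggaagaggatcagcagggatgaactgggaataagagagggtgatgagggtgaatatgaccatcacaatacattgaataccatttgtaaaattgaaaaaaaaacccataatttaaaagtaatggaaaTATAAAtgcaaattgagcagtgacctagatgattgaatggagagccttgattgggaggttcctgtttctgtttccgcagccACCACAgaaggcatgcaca
Itgam: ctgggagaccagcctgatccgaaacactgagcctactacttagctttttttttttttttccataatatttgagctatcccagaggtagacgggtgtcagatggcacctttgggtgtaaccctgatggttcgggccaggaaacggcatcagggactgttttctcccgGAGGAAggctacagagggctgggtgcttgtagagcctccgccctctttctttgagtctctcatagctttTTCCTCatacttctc
Icam1: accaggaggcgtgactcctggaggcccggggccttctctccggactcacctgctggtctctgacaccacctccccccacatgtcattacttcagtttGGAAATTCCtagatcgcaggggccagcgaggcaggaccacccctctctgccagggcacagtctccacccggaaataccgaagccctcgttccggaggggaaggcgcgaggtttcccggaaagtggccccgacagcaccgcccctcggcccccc
The *Itgam* promoter held the PU.1 core at 84 bases before the start and, on the other strand, at 15 bases before it. The *Jaml* promoter held the TBP box at 100 bases before the start and the RUNX core on the other strand at 19 bases before it. The NF-κB form lay 153 bases before the start of *Icam1*. The fifth promoter, that of *Itga4*, held the RUNX core on the other strand at 60 bases before the start, and the *Itgb7* window held none of these letters. Of 32851 mouse promoters of this length, 23.3% held the PU.1 core, 14.0% the RUNX core, 12.4% the TBP box and 0.286% the NF-κB form. No matches overlapped in these promoters, and a match is a description of letters only.

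Of the beta 2 integrins, the alpha chains *Itgam* and *Itgal* rose, and the shared beta chain did not pass the test. *Itgb2* had a lowest, median and highest value of 23204, 24758 and 27408 normalized counts in control and of 24802, 26118 and 28743 in CNV d3. The log2 fold change of *Itgb2* was 0.08 with a 95% interval from -0.05 to 0.21 (limma, adjusted p = 0.455), and the groups overlapped. *Itgam* had 5598, 6458 and 7106 normalized counts in control and 9262, 10586 and 11862 in CNV d3. All CNV d3 values lay above all control values, with a mean of 6403 ± 557 (SD, n = 6) in control and 10544 ± 1082 in CNV d3 and a log2 fold change of 0.72 ± 0.09 (SE, limma, adjusted p = 9.5e-05).

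*Itgal* was rare in control microglia, with 109, 202 and 329 normalized counts as lowest, median and highest value, and reached 566, 1032 and 1512 in CNV d3. The groups did not overlap, and the log2 fold change was 2.30 ± 0.32 (SE, limma, adjusted p = 0.00031). Within CNV d3, replicates 1 and 4 had the lowest and replicates 3 and 6 the highest *Itgal*.

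Whether the partner chains changed by the same amount was asked of 7 ratios within samples, with a two-sided exact permutation test that ran through the 924 possible relabellings, adjusted over the 7. The log2 ratio of *Itgal* to *Itgb2* was 2.22 higher in CNV d3 than in control, that of *Itgam* to *Itgb2* 0.64 higher and that of *Itgal* to *Itgam* 1.58 higher. In each of these 3 ratios all 6 CNV d3 samples lay above all 6 controls (exact permutation p = 0.00216, the smallest this design allows, adjusted p = 0.00303). *Itgal* thus changed by 2.99-fold more than *Itgam*.

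For levels between genes, normalized counts were divided by the kilobases of exon in Gencode M21. Of the summed level of the 4 alpha chains that pair with beta 2, *Itgam* held 87.9% ± 3.27 (SD, n = 6) in control and 79.7% ± 3.64 in CNV d3. The share of *Itgal* was 2.23% ± 0.89 in control and 5.85% ± 1.6 in CNV d3, and that of *Itgax* 9.91% ± 3.08 and 14.4% ± 2.50. *Itgad* had no reads in control and a share of 0.0493% in CNV d3. The level of *Itgam* is a low estimate, because 68.7% of its exon bases also lie in exons of the predicted gene *Gm49368*, and default counting leaves out reads in exons of more than 1 gene. *Gm49368* itself had at most 4.06 normalized counts in any sample. Per kilobase of exon shared with no other gene, the share of *Itgam* was 95.8% in control and 92.6% in CNV d3, and that of *Itgal* 0.764% and 2.14%. The share of *Itgax* was then 3.41% and 5.28%, so the shares of *Itgal* and *Itgax* above are high estimates. Shares are a description and were not tested apart from the ratios.

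**Figure D2:**
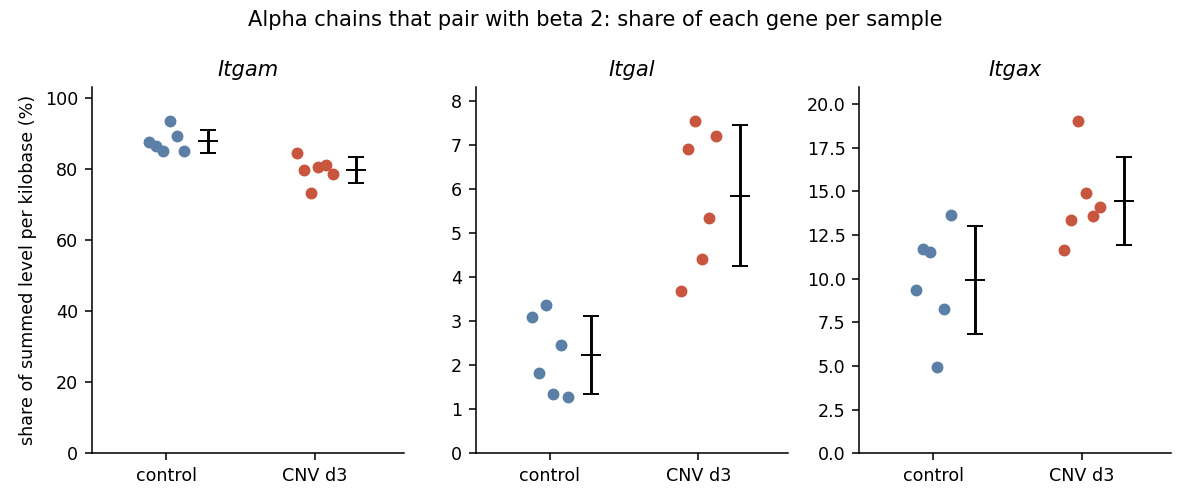
Share in percent of *Itgam*, *Itgal* and *Itgax* in the summed level per kilobase of exon of the 4 alpha chains that pair with beta 2, as 1 point per sample with mean and SD in black. The vertical axes start at 0 and differ between panels. The *Itgal* share was 1.27% to 3.37% in control and 3.68% to 7.55% in CNV d3. All exon bases are used here, which makes the *Itgam* share a low estimate and the other shares high estimates.

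Among the chains that pair with beta 1 and beta 7, *Itgb7* was almost absent in control and present in every CNV d3 sample. *Itgb7* had 5 reads in all controls together, 3 in replicate 3 and 2 in replicate 5, and 2200 reads in CNV d3. Its normalized counts were between 0 and 3.38 in control and had a lowest, median and highest value of 48.8, 273 and 619 in CNV d3, so the groups did not overlap. The log2 fold change was 7.12 ± 0.80 (SE, limma, adjusted p = 6.2e-05). Such a value depends on the pseudocount where control is near 0, and it was 8.19 by edgeR on the recovered reads.

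*Itga4*, a partner of beta 7 and of beta 1, had 25.8, 165 and 250 normalized counts as lowest, median and highest value in control and 146, 415 and 625 in CNV d3. The groups overlapped, with CNV d3 replicates 1 and 4 inside the control range and the other 4 above it. The log2 fold change was 1.41 with a 95% interval from 0.31 to 2.51 and did not pass the test (limma, adjusted p = 0.092). DESeq2 on the recovered reads gave 1.31 and an adjusted p of 0.0219. The log2 ratio of *Itga4* to *Itgb7* was 5.72 lower in CNV d3 (exact permutation p = 0.00216, adjusted p = 0.00303), from a mean of 6.42 in control to 0.70. With *Itgb7* at 0 reads in 4 of 6 controls this size depends on the scale, and it lay between -6.45 and -2.20 over the 17 alternatives. For the same reason its p-value restates the rise of *Itgb7* and is no separate test of the partner chains. The log2 ratio of *Itga4* to *Itgb1* differed by 0.95, which did not pass the test (exact permutation p = 0.115, adjusted p = 0.134), and by 0.51 without control replicate 1 (exact permutation, adjusted p = 0.268).

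*Itga6* was among the most abundant members, with 12514, 15546 and 16613 normalized counts in control and 17411, 21120 and 24865 in CNV d3. The groups did not overlap, and the log2 fold change was 0.50 ± 0.10 (SE, limma, adjusted p = 0.0041). Its partner *Itgb1*, the most widely shared beta chain, rose by 0.46 (limma, adjusted p = 0.00075). The log2 ratio of *Itga6* to *Itgb1* was 0.16 ± 0.19 (SD, n = 6) in control and 0.20 ± 0.15 in CNV d3 (exact permutation p = 0.686).
The log2 ratio of *Itgb7* to *Itgb1* was 6.67 higher in CNV d3 with no overlap (exact permutation p = 0.00216, adjusted p = 0.00303), a size that lay between 2.98 and 7.53 over the 17 alternatives. With *Itgb7* near 0 in control, this p-value also restates the rise of *Itgb7* and is no separate test of the 2 beta chains. Per kilobase, *Itgb7* still made up only 2.38% ± 1.79 (SD, n = 6) of the summed beta 1 and beta 7 level in CNV d3, from 0.423% to 4.76% over the samples.

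Of the immunoglobulin-type members, only *Jaml* rose, *Pecam1* fell, and the integrin ligands *Icam1* and *Vcam1* did not pass the test. *Jaml* had 0 reads in all 6 control samples and 691 reads in CNV d3. Its CNV d3 values were 34, 110, 280, 29.4, 60.9 and 74.8 normalized counts in replicates 1 to 6. Against a floor of 3 reads in the shallowest control, 5.96 normalized counts, the CNV d3 mean of 98.2 was at least 16.5-fold higher, and limma gave an adjusted p of 7e-05. Without replicate 3 the mean was 61.9, at least 10.4-fold higher.

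*Pecam1* had 224, 262 and 741 normalized counts as lowest, median and highest value in control and 72.3, 118 and 227 in CNV d3. Controls 4 and 5 stood above the others, at 634 and 741, and CNV d3 replicate 2, at 227, lay above the lowest control, at 224, so the groups overlapped. The log2 fold change was -1.46 ± 0.40 (SE, limma, adjusted p = 0.0236). Leaving out control replicate 2, 4 or 5 or CNV d3 replicate 1, 4, 5 or 6 ended this call, with adjusted p between 0.0324 and 0.0847 over the 12 samples left out in turn. Of the endothelial markers, 1 of 10 in the table rose and 0 fell, against 8.29% risen and 4.57% fallen over all genes. Their summed level was 249 to 651 in control and 411 to 859 in CNV d3, most of it *Kdr*, a VEGF receptor. The other 2 leading markers of that list were low, *Cdh5* with 0 to 77.1 normalized counts in control and 15.2 to 88.9 in CNV d3 and *Plvap* with 0 to 67.6 and 0 to 37.4. Of the platelet markers only 2 of 6 were in the table. *Gp9*, a chain of the platelet receptor for von Willebrand factor, fell from between 377 and 711 to between 50.7 and 316, and *Itga2b* had no reads in control and at most 16.8 normalized counts in CNV d3. The part of these cells in the *Pecam1* values was not tested.

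*Icam1*, a ligand of LFA-1 and Mac-1, was well expressed by the sorted cells, with 3778, 4941 and 5179 normalized counts in control and 3309, 4161 and 4589 in CNV d3. The groups overlapped, with a log2 fold change of -0.18 and a 95% interval from -0.42 to 0.05 (limma, adjusted p = 0.340). *Vcam1*, the ligand of alpha 4 beta 1, varied widely in both groups, with 136, 338 and 669 normalized counts in control and 103, 183 and 489 in CNV d3. The log2 fold change of *Vcam1* was -0.50 with a 95% interval from -1.44 to 0.44 (limma, adjusted p = 0.536).

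**Figure D3:**
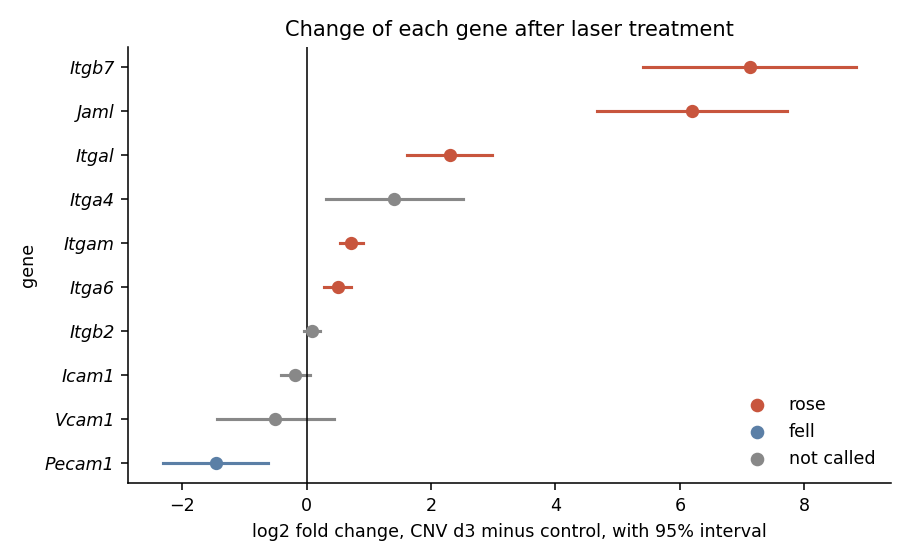
Log2 fold change of the 10 genes in CNV d3 against control (limma, points) with its 95% interval (lines), ordered by size and coloured by call. The intervals of *Itgb7* and *Jaml* start above 4, and those of *Itgb2*, *Icam1* and *Vcam1* hold 0.

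Per kilobase of exon, the 10 genes spanned a wide range of levels, and their order changed between the groups. In control the order was *Itgb2* (8173), *Itga6* (1658), *Itgam* (1275), *Icam1* (1061), *Pecam1* (63.0), *Vcam1* (39.0), *Itgal* (32.8), *Itga4* (11.4), *Itgb7* (0.324) and *Jaml* (0), as mean normalized counts per kilobase. *Pecam1* exceeded *Vcam1* in only 4 of 6 controls, *Vcam1* exceeded *Itgal* in 4 and *Itgal* exceeded *Itga4* in 5, so these neighbours were not apart in every sample. In CNV d3 the same 4 genes led, at 8636 for *Itgb2*, 2343 for *Itga6*, 2099 for *Itgam* and 933 for *Icam1*. *Itgal* (158) and *Itgb7* (112) followed, each above the next member in all 6 samples. *Jaml* (31.6), *Itga4* (28.3), *Vcam1* (27.9) and *Pecam1* (22.2) lay last and were not apart from each other in every sample. Per kilobase of exon shared with no other gene, *Itgam* came before *Itga6*, at 4068 in control and 6699 in CNV d3. Exon bases shared with another gene also made up 12.8% of *Jaml*, 11.7% of *Icam1*, 8.04% of *Itga4* and 0.688% of *Vcam1*, and no others were shared among the members.

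Within CNV d3, 6 of the 10 members differed widely between samples. As SD in percent of the mean level, *Jaml* had 95.5%, *Itgb7* 78.1%, *Vcam1* 62.6%, *Pecam1* 50.5%, *Itga4* 49.0% and *Itgal* 37.0%, against 13.3% for *Itga6*, 11.5% for *Icam1*, 10.3% for *Itgam* and 5.02% for *Itgb2*. The spread was also wide in control, at 59.2% for *Pecam1*, 56.5% for *Vcam1*, 50.1% for *Itga4* and 44.6% for *Itgal*. *Itgb7*, with 5 control reads, had 162% there, and *Itga6*, *Icam1*, *Itgam* and *Itgb2* had 6.29% to 13.4%. Among the CNV d3 samples, replicates 1 and 4 had the lowest values of *Itgal*, *Itga4*, *Itgb7* and *Jaml* and the highest values of *Vcam1*. The same samples were lowest in the summed level of 12 monocyte markers, at 1548 and 1641 normalized counts, while replicates 2, 5, 6 and 3 had 2780, 3306, 4357 and 4962. The same samples were also lowest in the summed dendritic cell markers, at 2515 and 2286, and highest in the sum of 10 microglial markers, at 835906 and 801578, while replicate 3 was highest in the first of these sums and lowest in the second. The full order of the 6 samples by *Itgb7* was the same as by the monocyte sum, and the orders by *Itgal*, *Itga4* and *Jaml* differed from it. Over the groups, 5 of the 12 monocyte markers rose and 0 fell, against 8.29% risen and 4.57% fallen over all genes. The monocyte sum was 437 to 1481 in control, with 3 markers at 0 reads in every control. *Ccr2*, the chemokine receptor of monocytes, had 0 to 95.3 normalized counts in control and 120 to 1351 in CNV d3, *Plac8* 1.01 to 288 and 200 to 1447, and *Ms4a4c* 139 to 730 and 658 to 1686. *Ly6c2*, named in addition to the rule for named genes because the sort left out Ly6C+ cells, had 0 reads in control and 1.73 to 25.1 normalized counts in CNV d3.

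**Figure D4:**
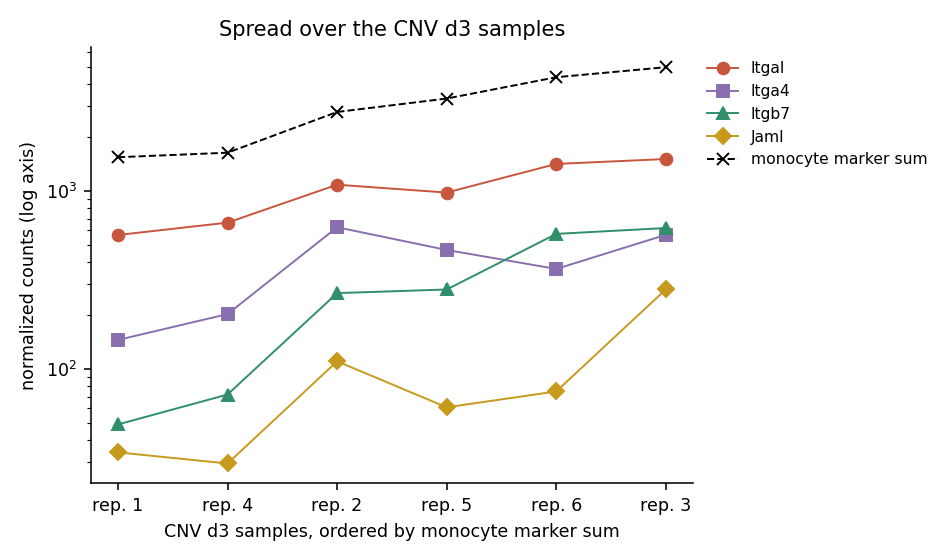
Normalized counts on a log axis of *Itgal*, *Itga4*, *Itgb7* and *Jaml* and the summed monocyte markers (dashed) in the 6 CNV d3 samples, ordered by that sum. Replicates 1 and 4 were lowest in all 5 lines, and replicate 3 was highest in the sum, *Itgal*, *Itgb7* and *Jaml*.

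Markers of other leukocytes moved as follows beside *Itgal*, *Itgb7* and *Jaml*, where 8.29% of all genes rose and 4.57% fell. Of 9 dendritic cell markers 5 rose and 0 fell, with a sum of 1031 to 1909 in control and 2286 to 5155 in CNV d3. *Itgax*, which is on that list and is also a partner of beta 2, had 331 to 885 normalized counts in control and 1308 to 2787 in CNV d3. *Ccr7*, the receptor that guides dendritic cells to lymph nodes, had at most 30.1 in control and 0 to 1376 in CNV d3, and *Batf3* 202 to 553 and 256 to 324. T cell and NK cell markers stayed near 0, with a sum of 0 to 14.1 in control and 3.69 to 51.0 in CNV d3, 1 of 9 rose (*Thy1*), and 6 of 9 had no read in control. Of 8 neutrophil markers 1 rose (*Mmp9*, 0 in control and at most 32.4 in CNV d3) and 0 fell. *Csf3r* made up most of their sum of 9051 to 11561 in control and 4979 to 10768 in CNV d3, and *S100a8* had at most 22.3 in any sample. Of 7 border macrophage markers 2 rose and 0 fell, with sums of 2454 to 4264 and 3117 to 4245. The 3 of highest level were *Stab1*, which rose, and *Ms4a7* and *Mrc1*, which did not pass the test. The log2 fold change was -0.001 for *Ms4a7* and -1.44 for *Mrc1* (limma, adjusted p = 0.233 for *Mrc1*). Of 7 Mueller glia and astrocyte markers, led by *Glul*, *Slc1a3* and *Rlbp1*, 2 rose and 1 fell. The part of monocytes, dendritic cells or other cells in the values of *Itgal*, *Itgb7*, *Jaml* and *Itga4* was not tested.

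Of 80 further adhesion genes on 5 lists, 76 were in the table, and 16 rose, 12 fell and 48 did not pass the test. That is 11 higher and 13 lower with upper-quartile scaling. The shares were 8.29% risen and 4.57% fallen over all genes, and 13.7% and 8.92% among genes with a mean of at least 10. Of the 76 genes, 52 reached that mean. Their median log2 fold change, over all 76, was 0.30. The 76 held 4 increased DEG and 0 decreased DEG, against 3.91% and 1.07% over all genes. Of 13 other alpha chains, 2 rose and 2 fell. *Itgax* rose by 1.45 and *Itga5*, the fibronectin receptor chain, rose by 1.26 on the log2 scale, from 709 ± 277 (SD, n = 6) to 1645 ± 494 normalized counts (limma, adjusted p = 0.0049). *Itga9* fell by 1.09 and *Itgav*, which pairs with several beta chains, fell by 0.43. Of 6 other beta chains, *Itgb1* rose and *Itgb3*, a partner of alpha v, fell by 0.60 (limma, adjusted p = 0.0136). *Itgb5*, with a mean of 63916 normalized counts in control and 68146 in CNV d3, did not pass the test (log2 fold change 0.08, limma, adjusted p = 0.572) and was chosen after its values were seen, for its high level.

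Of 19 other immunoglobulin-type and junctional molecules, 3 rose and 5 fell. *Cd244a*, a receptor for CD48, rose by 3.37 on the log2 scale, from 186 ± 85.8 (SD, n = 6) to 1833 ± 566 normalized counts, and *Nectin2* rose by 0.65. *Alcam* rose by 4.43 with limma (adjusted p = 0.0231) but had 231 normalized counts in 1 control and an adjusted p of 0.331 by edgeR. *Sirpa*, the receptor for CD47, fell by 0.48, the junctional molecule *F11r* fell by 0.44 and *Cd84* fell by 0.82. Of 7 selectins, selectin ligands and CD44, 3 rose and 1 fell. *Selplg*, the ligand of P-selectin, fell by 0.96, from 161900 ± 6844 (SD, n = 6) to 85286 ± 20678 normalized counts. *Glg1* rose by 0.34, the hyaluronan receptor *Cd44* rose by 0.64, and *Cd24a* had 0 reads in control and 5.19 to 104 normalized counts in CNV d3 (limma, adjusted p = 0.00039).

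Of 31 genes of integrin activation and linkage to actin, 7 rose and 3 fell. *Tln1*, whose product talin binds beta tails and switches integrins on, rose by 1.07 on the log2 scale, from 6086 ± 816 (SD, n = 6) to 12836 ± 1939 normalized counts (limma, adjusted p = 3.7e-05). The small GTPase *Rap1b* rose by 0.35 and the exchange factor *Vav1* rose by 0.24. *Apbb1ip*, whose product RIAM links RAP1 to talin, fell by 0.70, *Lims1* fell by 0.57 and the kinase *Lyn* fell by 0.27. *Ilk*, named after its values were seen, had almost no reads, and 89.7% of its exon bases lie in exons of other genes, so its level is uncertain.

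**Figure D5:**
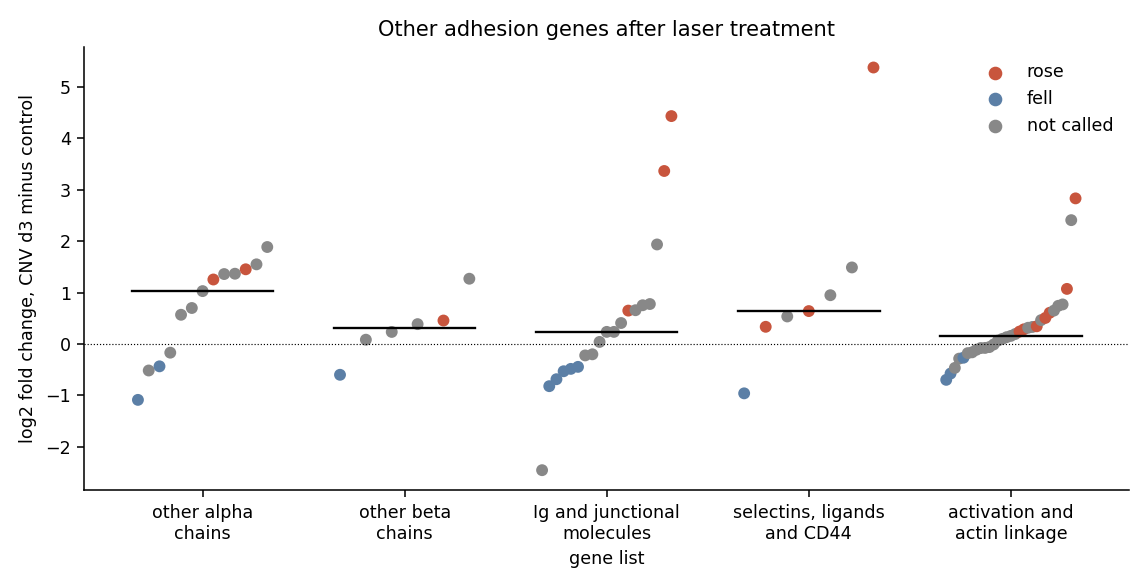
Log2 fold change (CNV d3 against control, limma) of the 76 other adhesion genes by list, with 1 point per gene coloured by call and the median of each list as a black bar. The medians were 1.03 for alpha chains, 0.31 for beta chains, 0.24 for immunoglobulin-type and junctional molecules, 0.64 for selectins, ligands and CD44 and 0.16 for activation and actin linkage. The first 3 medians lie on genes near 0. For alpha chains it is the value of *Itga3*, which had 1 read in control and 20 in CNV d3. A mean of at least 10 normalized counts was reached by only 5 of 13 alpha chains and 3 of 6 beta chains.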

How the data were processed

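RNA was measured in 6 CNV d3 and 6 control samples, grouped by their labels. The 10 genes and all gene lists were chosen with earlier results of these data known. The authors made cDNA from 150 to 600 pg of RNA and mapped reads with STAR 2.7.2b to GRCm38.p6 with Gencode M25. They merged runs and counted with featureCounts 1.6.4 at default settings. Of the 12 samples, 7 are listed in 2 parts, all controls among them. The methods describe 2 alignment files for every sample, from separate flow cells, while the other CNV d3 samples are listed whole. The sample titles do not say whether the parts are flow cells. The deposited signal, called normalized counts here, is the read count divided by the sample's DESeq2 size factor. The table also holds the authors' means, fold changes and adjusted p-values, which were not used. Default counting uses neither strand nor reads in exons of more than 1 gene.

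The groups were compared with limma 3.58.1 in R 4.3.3 on log2(normalized counts + 1), with a variance trend, no further filter and Benjamini-Hochberg adjustment over 27299 genes. A DEG followed the study's thresholds, an absolute log2 fold change above 1.5 and adjusted p under 0.05. In every sample 100% of values divided by the smallest one gave whole numbers (within 0.01 reads), which recovered the reads. On these, edgeR 4.0.16 called 1952 genes higher and 1181 lower, and limma 2264 and 1247 on the normalized counts. A read was worth 0.739 to 1.99 normalized counts. The floor was set at 3 reads. There are no molecular identifiers, so the floor covers counting error only. Fits were tested on simulated data.

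Named genes are the 10 members, the 3 called genes of highest mean per direction in each adhesion list, the 3 markers of highest mean in each marker list, and partner chains used in ratios. Some markers and 1 marker list that this rule covers are not reported here. Coordinates and exon lengths came from Gencode M21, also on GRCm38, which held 27238 of the 27299 identifiers. Promoters came from RefSeq. Alternatives were pseudocounts of 0.5 and 5, a filter on low values, other scalings, limma with no trend, edgeR, DESeq2 1.42.0 and limma voom on recovered reads, a replicate block, and fits without each sample in turn. Thinning of reads and unshared exon length were added after the data were seen.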

Additional observations from a re-analysis of the deposited data

Results flagged for a closer look

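In groups of 6 samples, a gap to the nearest sample, over the whole range, above Dixon's critical value marked a sample as standing apart, which chance does in about 1 in 20 groups. It did so in 2 of 33 groups tested. *Jaml* in CNV d3 replicate 3 was at 280 normalized counts, while the other 5 CNV d3 samples lay between 29.4 and 110. The log2 ratio of *Itga4* to *Itgb1* in control replicate 1 was -8.87, and the other 5 controls lay between -6.70 and -5.74.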

How the results depend on the processing

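The count of members that rose was 5 in limma and between 5 and 6 over the 23 alternatives, with *Itga4* the sixth under DESeq2 (adjusted p = 0.0219) and with the replicate block. The count of increased DEG was 3 in all of them, and no called log2 fold change or ratio changed its direction. The fall of *Pecam1* was the unstable call: the count of members that fell was 0 to 1 over the 12 leave-one-out fits, and the log2 fold change lay between -1.64 and -1.24. It counted as a decreased DEG (1 member, 0 in the main comparison) with upper-quartile scaling, DESeq2 and limma voom, and in 0 to 1 members over the leave-one-out fits. The cause was not tested. Further adhesion genes that rose numbered 11 to 18 and those that fell 10 to 14 over the alternatives. The log2 fold change of *Jaml* lay between 3.97 and 9.68 and that of *Itgb7* between 5.26 and 8.37, since control values near 0 make it depend on the pseudocount. The 2 ratios with *Itgb7* moved likewise, and all 7 ratios kept their side of the threshold in the 17 alternatives run on them. The median log2 fold change of the 13614 genes of higher mean was 0.10 as deposited, 0.11 with TMM and 0.03 with upper-quartile scaling. The replicate numbers were not taken as pairs: deviations of same-numbered samples correlated between -0.011 and 0.046, and only 1 of 6 samples correlated best with its own number. With the replicate block 6 members rose and 1 fell, and over all genes 1885 rose and 975 fell. The lower depth of all controls limits what can be said of genes at 0 there.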
